A study of Mus musculus with 24 samples.

Results

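The nuclear-encoded subunits of the mitochondrial respiratory chain and ATP synthase were followed in mouse uterus and in endometriotic lesions. They were taken from the gene table as protein-coding rows with a symbol of the Nduf, Sdh, Uqcr, Cyc1, Cycs, Cox4 to Cox8 or Atp5 families, which gave 88 rows of 56691 in the table, with 87 different symbols. Complex I held 37 of these rows, complex II 4, complex III 9, complex IV 19, cytochrome c 1 and complex V, the ATP synthase, 18. Ndufa4 was counted with complex IV, where its protein sits, and Cyc1 with complex III.

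The respiratory chain passes electrons from NADH (through complex I) and from succinate (through complex II) to coenzyme Q, then through complex III and cytochrome c to complex IV, which reduces oxygen. Complexes I, III and IV pump protons across the inner mitochondrial membrane, and complex V uses the gradient to make ATP. Most subunits are encoded in the nucleus and are expressed in all tissues, but a few complex IV subunits have a second isoform in heart and skeletal muscle: Cox6a2, Cox7a1 and Cox8b there take the place of Cox6a1, Cox7a2 and Cox8a.

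The study is a surgical mouse model of endometriosis, in which uterine tissue lies outside the uterus. Total RNA was sequenced from 24 libraries in 6 groups of 4: uterus of sham-operated mice (sham), uterus of mice with endometriosis (eutopic) and the lesions themselves (labelled ectopic), each collected 1 month or 3 months after the operation. Mice were operated on at 8 weeks of age, were of a mixed C57BL/6 and SV129 background, and were collected on day 3.5 of pregnancy. At 1 month sham and endometriosis mice were labelled fertile, whereas at 3 months sham mice were labelled fertile and endometriosis mice subfertile, so that in mice with endometriosis time cannot be told apart from fertility and age. All groups carried the Rosa26mTmG/+ reporter, a membrane-fluorescent allele that changes colour where Cre acts. The lesion libraries were labelled Pgrcre/+Rosa26mTmG/+, with Cre driven from the progesterone receptor gene, and the eutopic and sham libraries Rosa26mTmG/+, while the series text gives the Cre driver to the mice with endometriosis. In the lesion comparisons, tissue and labelled genotype cannot be told apart. The series text describes 4 mice for each group, but the labels do not tie libraries to animals, so p-values measure the spread between samples.

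Total counts ran from 45133642 to 59407134 per library. Lesion libraries also held transcripts of other organs. Levels are given as CPM, counts scaled to a common library size. The summed CPM of 20 skeletal muscle genes were 131 to 373 in the 16 uterine libraries. In the lesions at 1 month they were 289, 2086, 264 and 162 in libraries 1 to 4, and at 3 months 111, 72027, 23499 and 12568. In lesion library 2 at 1 month the sum of liver and pancreas genes was 107256 CPM, against 5.09 to 45.0 in the other 23 libraries. The pancreas gene Ctrb1 was there at 25582 CPM, while the liver gene Alb was at 0.399 CPM, against 0.393 in library 1. In lesion library 1 at 3 months the sum of steroid-making ovarian genes was 25686 CPM, against 104 to 380 elsewhere. The labels give uterus as the tissue of every library, but the sum of 16 genes of uterine epithelium and stroma was 1108 and 2713 CPM in libraries 1 and 2 of the 3-month lesions, against 3912 to 5169 in the other 22. Some genes of that list were also low in libraries 3 and 4 of the 3-month lesions. Hand2 was at 22.0 and 15.4 CPM there, against 71.9 to 92.7 CPM in eutopic uterus of that month. Pgr was at 161 and 60.7 CPM, against 192 to 273 CPM. Krt8, at 156 and 132 CPM, stood near the eutopic range of 109 to 156 CPM. In these bulk samples, fewer cells of a type and less RNA per cell cannot be told apart. The share of these tissues in the results below was not tested. Values without these libraries stand beside the counts and the calls that changed without them.

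Per kilobase of exon, averaged over the sham groups, the gene of the ATP synthase alpha subunit, Atp5a1, had the highest level of the members, at 219.6 CPM per kb. The complex IV genes Cox8a, at 196 CPM per kb, and Cox4i1, at 192 CPM per kb, followed. At the low end of the members that passed the count filter lay the muscle isoforms, with Cox7a1 at 1.55 CPM per kb, Cox8b at 1.32 CPM per kb and Cox6a2 at 0.293 CPM per kb. The filter on low counts passed 85 of the 88 rows. The 3 rows that failed were Cox7b2, a testis isoform of complex IV with 8 counts in all 24 libraries, Cox8c, another testis isoform with 4 counts, and the second row of Atp5o (ENSMUSG00000116933.2), which held no counts beside 33831 in the first (ENSMUSG00000022956.12).

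In the uterus, no subunit gene passed the test between endometriosis and sham mice. At 1 month 0 of 85 members were called in edgeR's quasi-likelihood test at an adjusted p under 0.05, against 2 of 21208 genes tested in all (0.00943%). An unadjusted p under 0.05 was found for 1 member and for 1011 of all genes. At 3 months 0 of 85 were called, against 0 of all genes (0%), and 0 had an unadjusted p under 0.05, beside 999 of all genes. DESeq2 and limma voom also called 0 members at both times. However, voom at 1 month gave 62 of 85 members an unadjusted p under 0.05, beside 5420 of all 21208 genes. It also gave 84 of 85 positive values and a smallest adjusted p of 0.0752. At 3 months voom gave 4 members an unadjusted p under 0.05, beside 1982 of all genes. For 0 members did the 4 eutopic libraries lie wholly apart from the 4 sham libraries, where at 1 month 1.98% of all genes did so in the higher and 1.52% in the lower direction, and at 3 months 0.981% and 0.754%.

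The direction over the members was nevertheless uneven. At 1 month 77 of 85 log2 fold changes were positive, with a median of 0.17, while 51.6% of all genes tested were positive. At 3 months 22 of 85 were positive, with a median of -0.05, against 49.4% of all genes. The members with the smallest p at 1 month were Cox7a2l, a factor that links complexes III and IV (0.44 ± 0.21, SE; adjusted p = 0.88 in edgeR), the complex I subunit Ndufa3 and the complex III hinge subunit Uqcrh. At 3 months they were cytochrome c (Cycs), Cyc1 and Cox8b, with an adjusted p of 0.997 each in edgeR. The 1-month median was carried by 3 of the 4 eutopic libraries. Uqcrh was at 138, 245, 243 and 239 CPM in eutopic libraries 1 to 4, and at 153, 136, 196 and 166 CPM in sham libraries. Without eutopic library 1 the median of the members was 0.31 and 47 of 85 had an unadjusted p under 0.05 in edgeR, while 0 were called. Of all 21553 genes tested in that fit, 2617 had an unadjusted p under 0.05.

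**Figure D1:**
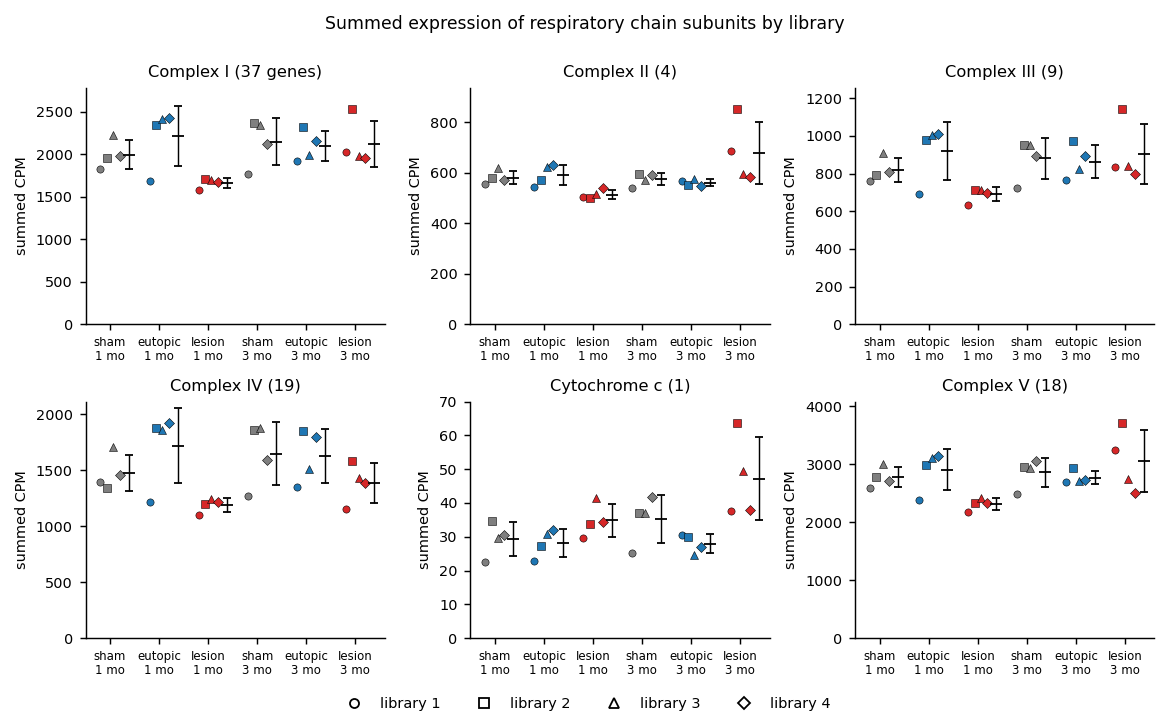
Summed CPM of the members of each complex in the 24 libraries (symbols, library number; bars, mean and SD of 4 libraries; axes start at 0). In complex I the 4 lesion libraries at 1 month, at 1579 to 1707, lie below 7 of the 8 uterine libraries of that month and overlap only eutopic library 1, at 1692.

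Summed over each complex, the lesions at 1 month were low and close together. Complex I summed to 1666 ± 59.9 CPM in lesions at 1 month (SD, n = 4), to 2220 ± 354 in eutopic uterus and to 1999 ± 166 in sham uterus. Complex IV summed to 1190 ± 62.3, 1721 ± 334 and 1476 ± 162 CPM in the same order, and complex V to 2315 ± 99.4, 2904 ± 356 and 2774 ± 176. The eutopic spread came from library 1, at 1692 CPM for complex I against 2344 to 2431 in the other 3.

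By gene, members fell in lesions at 1 month and none rose. Against eutopic uterus, 36 of 85 members (42.4%) were called lower and 0 higher, where 8.71% of all 22249 genes tested were called lower and 11.9% higher. The median log2 fold change of the members was -0.42, against -0.01 for all genes, and 3 of 85 were positive, against 49.2% of all genes. Of complex I 16 of 37 members fell, of complex II 1 of 4, of complex III 4 of 9, of complex IV 7 of 17 tested and of complex V 8 of 17 tested. The groups did not overlap for 19 members in the lower direction (14.1% of all genes) and for 1 in the higher (17.5%).

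The largest fall was that of Cox4i2, the isoform of complex IV subunit 4 found in lung and in oxygen-sensing cells. Cox4i2 stood at 2.34, 1.89, 2.68 and 1.54 CPM in lesion libraries 1 to 4 and at 3.27, 5.65, 5.67 and 6.15 CPM in eutopic libraries. The lesions were all below the eutopic libraries, with a log2 fold change of -1.29 ± 0.28 (SE; adjusted p = 0.00487, edgeR).

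Cox4i1, the isoform of the same subunit expressed in all tissues, was at 194, 214, 202 and 214 CPM in lesions and at 239, 386, 364 and 380 CPM in eutopic uterus. Its log2 fold change was -0.73 ± 0.16 (SE; adjusted p = 0.00423, edgeR), again with no overlap. Uqcrh was at 115, 128, 128 and 127 CPM in lesions, below the lowest eutopic library at 138, with -0.80 ± 0.21 on the log2 scale (SE; adjusted p = 0.011, edgeR).

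Among complex I, Ndufc2, a membrane-arm subunit, was at 74.1, 61.2, 69.0 and 63.0 CPM in lesions and at 77.01, 122, 125 and 139 CPM in eutopic uterus, and fell by 0.79 on the log2 scale. Cox7a2l was at 117, 112, 114 and 120 CPM in lesions and at 148, 214, 222 and 212 CPM in eutopic uterus, and fell by 0.78 on the log2 scale. In both genes the lesion libraries lay below every eutopic library, although eutopic library 1 came within a few CPM for Ndufc2.

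Some core subunits did not pass the test. Sdha, the flavoprotein that oxidises succinate, was at 267, 235, 255 and 278 CPM in lesions and at 288, 236, 278 and 271 CPM in eutopic uterus, with a log2 fold change of -0.05 ± 0.12 (SE; adjusted p = 0.79, edgeR). Uqcrc1, a core protein of complex III, gave -0.05 on the log2 scale (adjusted p = 0.804, edgeR). Cycs was the only member outside the muscle isoforms with a positive value at 1 month, at 0.31 on the log2 scale (adjusted p = 0.229, edgeR).

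Among the other catalytic and core subunits, Sdhd, a membrane anchor of complex II, fell by 0.53 on the log2 scale and Uqcrfs1, the Rieske iron-sulfur protein of complex III, by 0.53. Atp5a1 and Atp5b, the alpha and beta subunits of ATP synthase, gave -0.27 and -0.20 on the log2 scale and were not called. Ndufs1 and Ndufv1 of the electron-input module of complex I gave -0.24 and -0.26, Sdhc -0.34, Cox6b1 -0.32 and Ndufab1, the mitochondrial acyl carrier protein, -0.32, and none of these was called.

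The count of 36 depended on the reference and on single libraries. With sham uterus in place of eutopic uterus, an alternative added after seeing the data, 4 of 85 members fell: Cox4i2, Cox6c, Ndufb11 of complex I and Atp5d of complex V. Of all 22249 genes 1224 were called lower in that setting, so the share of the members was no higher. The median of the members was then -0.25, and 81 of 85 were still negative. Leaving out eutopic library 1 gave 59 called members, eutopic libraries 2, 3 and 4 gave 14, 13 and 12, and lesion libraries 1, 2, 3 and 4 gave 17, 20, 28 and 17. Of 22708 to 22787 genes tested in all, 2202, 1097, 1249 and 1233 were called lower without eutopic libraries 1 to 4. The numbers without lesion libraries 1 to 4 were 1672, 1201, 1585 and 1058. Limma voom called 78, with 4785 of all 22249 genes called lower. Lesion library 2, with its pancreas transcripts, did not carry the direction: the medians of lesion libraries 1 to 4 against the eutopic mean were -0.54, -0.34, -0.36 and -0.40.

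Other transcripts moved in the same comparison. Of 59 cytosolic ribosomal protein genes, another set of short and abundant nuclear transcripts, 44 fell and 2 rose, with a median of -0.68. Members with a shorter exon length, up to 1587 bp, had a median of -0.47 with 21 of 43 fallen, and the longer ones a median of -0.29 with 15 of 42. In the eutopic against sham comparison at 1 month the shorter members had a median of 0.22 and the longer 0.11. Of 12 tested subunits encoded in mitochondrial DNA 1, mt-Nd6, fell, with a median of -0.32. All 10 T cell markers rose, with a median of 3.27. Of all genes 8.71% fell and 11.9% rose in this comparison. The part of these differences in the result was not tested.

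**Figure D2:**
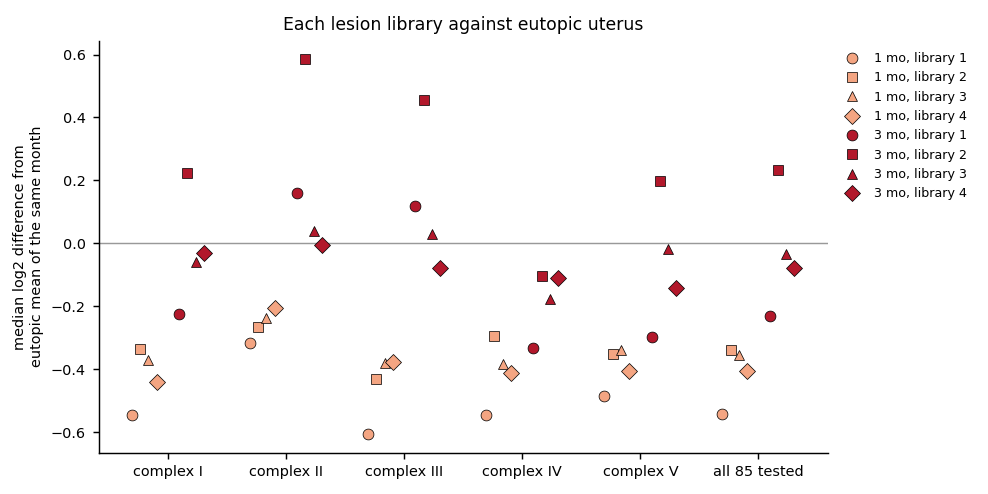
Median over the members of each complex of the log2 difference between a lesion library and the mean of the eutopic libraries of the same month (light, 1 month; dark, 3 months; symbols, library number). All 4 lesion libraries at 1 month lie below 0 in complexes I to V, while at 3 months library 2 lies at 0.23 over all 85 members and library 1 at -0.23.

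At 3 months the members no longer moved one way. Against eutopic uterus 13 of 85 members rose and 8 fell, that is 15.3% and 9.41%, where 23.4% of all genes tested rose and 17.1% fell, so neither share exceeded that of all genes, of which 40.5% were called in either direction. The median was 0.01, and 52.4% of all genes were positive. The median was 0.06 without lesion library 1, with 14 members called higher and 9 lower. It was -0.10 without lesion library 2 and -0.09 without libraries 1 and 2. Of the 36 members that were lower at 1 month, 7 were also lower at 3 months (Cox4i2, Cox6c, Cox7a2l, Cox8a, Ndufb2, Ndufc2 and Atp5g2), 29 were not called and 0 were higher. The groups did not overlap for 5 members in the higher direction (10.1% of all genes) and for 5 in the lower (13.8%). When only the compared groups entered the fit, 5 rose and 2 fell, beside 1819 and 1338 of all 20005 genes.

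The members that rose were the 3 muscle isoforms and 10 others, most of them parts of the catalytic cores. They were Sdha and Sdhb of complex II, Cyc1 and Uqcrc1 of complex III, Ndufs1, Ndufs3, Ndufs7 and Ndufv1 of the matrix arm of complex I, Ndufc1 of its membrane arm, and Cycs. Sdhb, the iron-sulfur subunit of complex II, was at 107, 142, 96.6 and 99.5 CPM in lesions and at 70.6, 79.2, 71.0 and 71.8 CPM in eutopic uterus. Every lesion library was higher, with a log2 fold change of 0.61 ± 0.13 (SE; adjusted p = 0.000922, edgeR).

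Cycs, which carries electrons between complexes III and IV, was at 37.7, 63.6, 49.6 and 37.8 CPM in lesions and at 30.5, 30.0, 24.5 and 27.1 CPM in eutopic uterus. It rose by 0.75 ± 0.18 on the log2 scale (SE; adjusted p = 0.0026, edgeR), with no overlap, but was not called against sham uterus, where its value was 0.42. The smaller rises rested more on single libraries. Sdha was at 390, 419, 279 and 293 CPM in lesions and at 275, 220, 279 and 240 CPM in eutopic uterus, so that lesion libraries 3 and 4 stood close to the highest eutopic value. With lesion libraries 1 and 2 both left out, Sdhb, Cycs, Uqcrc1 and the muscle isoforms were still called higher, together with Cox5a, which had not been called with them, and 14 members were called in all.

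The members that fell at 3 months were mostly in complex IV. Cox6c, a small accessory subunit, was at 143, 162, 202 and 157 CPM in lesions and at 233, 325, 256 and 344 CPM in eutopic uterus, with a log2 fold change of -0.80 ± 0.17 (SE; adjusted p = 0.000846, edgeR) and no overlap. Cox6b2, an isoform best known from testis, was at 9.34, 4.60, 4.70 and 3.48 CPM in lesions and at 8.56, 11.4, 11.2 and 12.1 CPM in eutopic uterus. Library 1 was inside the eutopic range and the other 3 were below it, with -0.97 ± 0.26 on the log2 scale (SE; adjusted p = 0.00592, edgeR).

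Cox4i2 was at 3.08, 1.39, 1.31 and 2.17 CPM in lesions and at 2.83, 4.04, 4.57 and 4.18 CPM in eutopic uterus, with -0.97 ± 0.28 on the log2 scale (SE; adjusted p = 0.00995, edgeR). Here too library 1 overlapped the eutopic libraries. Cox7a2l fell by 0.71 and Ndufc2 by 0.67 on the log2 scale. Neither these nor Cox6b2 and Cox4i2 were called when only the compared groups were fitted, and Ndufc2 also lost its call without lesion library 2 or 4. Cox7a2l, at -0.49, also lost its call without lesion libraries 1 and 2.

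The ATP synthase core did not pass the test at 3 months. Atp5b was at 947, 1081, 741 and 642 CPM in lesions and at 785, 685, 743 and 620 CPM in eutopic uterus, so that libraries 1 and 2 were above the eutopic range and libraries 3 and 4 inside it. Its log2 fold change was 0.27 (adjusted p = 0.0954, edgeR), and that of Atp5a1 was 0.18. Sdhc at -0.01, Sdhd at -0.14, Uqcrfs1 at 0.12, Ndufab1 at -0.07 and Cox6b1 at 0.01 were not called.

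**Figure D3:**
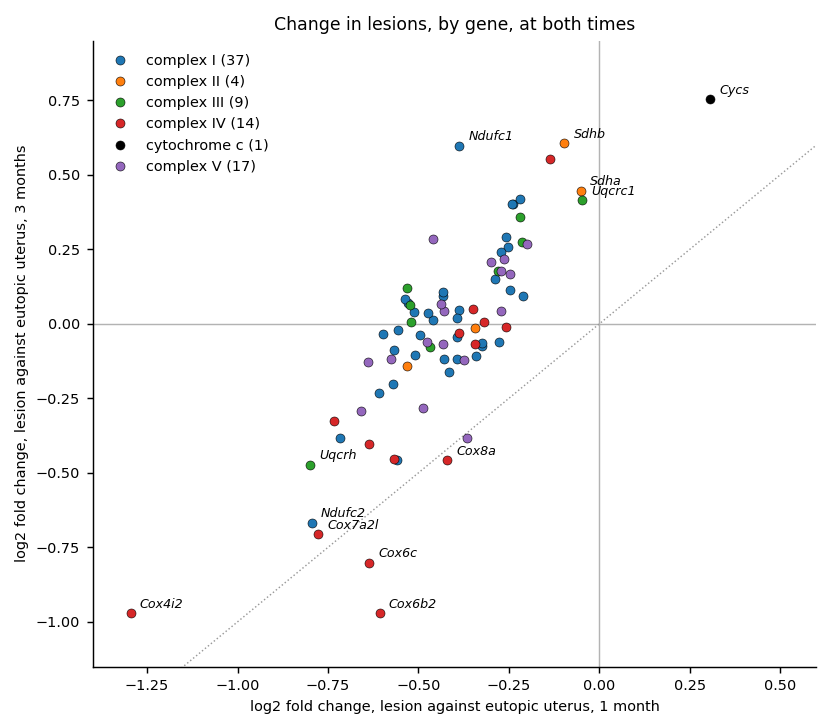
Log2 fold change of lesion against eutopic uterus at 1 month (horizontal) and at 3 months (vertical) for 82 members, coloured by complex; Cox6a2, Cox7a1 and Cox8b are left out because their values at 3 months, 3.53 to 8.53, lie off the scale. The dotted line marks equal change; Cox6c and Cox6b2 lie below it, and Ndufc1 and Sdhb lie above it by 0.98 and 0.70, against a median of 0.43 over the 85 members.

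The muscle isoforms set the range of the family. They are given here with the promoters of some of them and of some of their partners. Whether the promoters bear on the levels was not tested. The 250 bases before the start site were taken from RefSeq (build GRCm38.p6), 5′ to 3′ on the coding strand. Capitals mark matches to the 5 motifs searched on both strands: the NRF1 motif, the ETS core (written CCGGAAG), the muscle E-box (written CAGCTG), the TATA box (written TATAAA) and the MEF2 motif. No promoter of Cox6a2 or Cox7a2 is shown, so both promoters of a pair are shown for Cox8b and Cox8a alone. Cox8b lies at chr7:140900447-140900696 (minus strand), Cox8a at chr19:7217617-7217866 (minus), Cox7a1 at chr7:30183921-30184170 (plus) and Cox6a1 at chr5:115348959-115349208 (minus).
Cox8b: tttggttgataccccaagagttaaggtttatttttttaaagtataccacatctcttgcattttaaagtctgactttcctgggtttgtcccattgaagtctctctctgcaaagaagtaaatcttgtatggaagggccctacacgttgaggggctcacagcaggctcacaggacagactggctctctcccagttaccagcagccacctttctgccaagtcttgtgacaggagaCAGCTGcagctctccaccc
Cox8a: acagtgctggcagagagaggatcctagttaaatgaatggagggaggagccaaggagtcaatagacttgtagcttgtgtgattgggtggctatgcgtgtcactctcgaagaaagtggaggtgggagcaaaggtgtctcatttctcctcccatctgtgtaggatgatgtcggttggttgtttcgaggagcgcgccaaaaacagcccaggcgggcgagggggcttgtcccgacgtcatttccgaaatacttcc
Cox7a1: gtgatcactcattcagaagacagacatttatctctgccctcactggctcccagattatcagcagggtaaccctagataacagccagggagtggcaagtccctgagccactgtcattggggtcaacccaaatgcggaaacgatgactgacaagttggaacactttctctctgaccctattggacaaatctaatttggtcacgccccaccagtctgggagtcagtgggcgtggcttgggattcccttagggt
Cox6a1: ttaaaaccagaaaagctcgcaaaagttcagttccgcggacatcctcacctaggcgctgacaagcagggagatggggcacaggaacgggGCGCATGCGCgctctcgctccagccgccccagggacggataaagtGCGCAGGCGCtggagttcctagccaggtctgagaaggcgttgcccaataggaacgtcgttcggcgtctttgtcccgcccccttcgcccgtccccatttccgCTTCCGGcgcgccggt

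Of the muscle isoforms shown, Cox8b held CAGCTG at position -19 and Cox7a1 held none of the 5 motifs. Of the widely expressed forms, Cox6a1 held GCGCATGCGC at -162, GCGCAGGCGC at -117 and the reverse form of the ETS core, CTTCCGG, at -16, while Cox8a held none. Over the family, 71 of 87 symbols had an entry in the table, with 76 windows. The NRF1 motif, read by the factor named for activating respiratory genes, was in 14 of 76 windows (18.4%), against 3.74% of all 32851 promoters of the same length. The ETS core was in 15.8% against 6.91%, the E-box in 7.89% against 13.0%, the TATA box in 10.5% against 12.4% and the MEF2 motif in 1.32% against 3.20%. These are matches of letters and not measured binding.

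In uterus the muscle isoforms were low. Cox6a2 was at 0 to 0.383 CPM over the 16 uterine libraries, Cox7a1 at 0.515 to 1.48 CPM and Cox8b at 0.231 to 0.785 CPM. In lesions at 1 month Cox6a2 was at 0.411, 3.56, 0.404 and 0.559 CPM in libraries 1 to 4, Cox8b at 0.661, 1.04, 0.459 and 2.60 CPM and Cox7a1 at 0.447, 1.04, 0.202 and 0.384 CPM. None was called at 1 month, with log2 fold changes of 2.12 for Cox6a2 (adjusted p = 0.186, edgeR), 1.26 for Cox8b (adjusted p = 0.321) and -0.90 for Cox7a1 (adjusted p = 0.205). Without lesion library 2 the value for Cox6a2 was 0.71 (adjusted p = 0.715, edgeR).

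At 3 months the same isoforms were high in 3 of the 4 lesion libraries. Cox6a2 was at 0.0934, 118, 57.5 and 27.2 CPM in lesion libraries 1 to 4 and at 0.0192, 0, 0.154 and 0.355 CPM in eutopic libraries. Cox8b was at 0.0187, 35.1, 15.0 and 8.44 CPM in lesions and at 0.231, 0.269, 0.327 and 0.426 CPM in eutopic uterus. For both genes libraries 2, 3 and 4 lay far above the uterus and library 1 did not.

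Cox7a1 was at 4.43, 24.6, 8.56 and 5.38 CPM in lesions and at 0.673, 1.16, 0.713 and 1.15 CPM in eutopic uterus, so all 4 lesion libraries were higher. The log2 fold changes were 8.53 ± 1.44 for Cox6a2 (SE; adjusted p = 0.000151, edgeR), 5.53 ± 1.03 for Cox8b (adjusted p = 0.000362) and 3.53 ± 0.53 for Cox7a1 (adjusted p = 5.49e-05). The value for Cox6a2 depends on eutopic libraries with few or no counts. Each of the 3 calls held under all 16 alternatives run, with log2 fold changes of 7.58 to 9.70 for Cox6a2, 4.63 to 5.94 for Cox8b and 2.73 to 3.79 for Cox7a1.

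**Figure D4:**
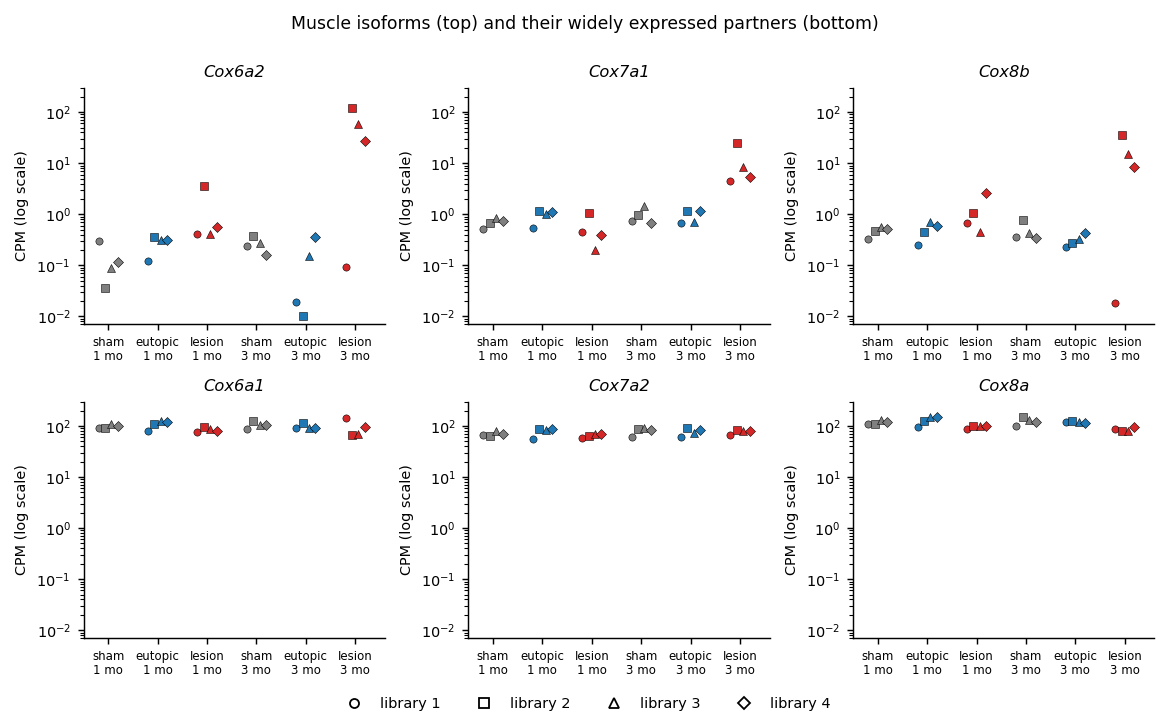
CPM of the muscle isoforms (top) and of their widely expressed partners (bottom) in each library on a common log axis; the library of eutopic uterus with no Cox6a2 counts is drawn at 0.01. Lesion libraries 2, 3 and 4 at 3 months hold 27.2 to 118 CPM of Cox6a2, while library 1 holds 0.0934.

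The partners showed no such rise. Cox6a1 was at 142, 65.8, 69.8 and 93.8 CPM in lesions at 3 months and at 92.7, 113, 92.7 and 91.3 CPM in eutopic uterus, with a log2 fold change of -0.07 (adjusted p = 0.794, edgeR). Cox7a2 was at 67.8, 81.8, 79.0 and 79.2 CPM in lesions and gave -0.01 (adjusted p = 0.965). Cox8a fell at both times, by 0.42 on the log2 scale at 1 month and by 0.46 at 3 months (adjusted p = 0.00683 at 3 months, edgeR). At 3 months it was at 89.1, 79.0, 81.2 and 95.5 CPM in lesions, below the eutopic range of 113 to 126.

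Per kilobase of exon, the muscle form made up 65.0%, 46.0% and 23.1% of the Cox6a pair in lesion libraries 2, 3 and 4 at 3 months, and 0.0679% in library 1. The share in uterine libraries was at most 0.4%. Cox8b made up 43.3%, 24.1% and 13.2% of its pair in libraries 2, 3 and 4 and 0.0360% in library 1. Cox7a1 made up 10.3%, 34.6%, 16.1% and 10.7% of its pair in libraries 1 to 4, against 1.36% to 2.78% over the uterine libraries. The order of libraries 2, 3 and 4 was the same in all 3 pairs.

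The skeletal muscle genes followed that order too. Their sums of 72027, 23499 and 12568 CPM in libraries 2, 3 and 4 ran from the highest to the lowest value of each isoform. Per 1000 CPM of skeletal muscle genes these libraries held 1.64, 2.45 and 2.17 CPM of Cox6a2, 0.487, 0.639 and 0.671 CPM of Cox8b and 0.341, 0.364 and 0.428 CPM of Cox7a1. Ckm, muscle creatine kinase, was at 4706, 1490 and 773 CPM in the same libraries and at 0.299 CPM in library 1. All 20 skeletal muscle genes rose at 3 months, with a median log2 fold change of 9.55, where 23.4% of all genes rose. At 1 month 8 of 20 rose, where 11.9% of all genes did. The sum of these genes was then above its uterine range in lesion library 2 alone. Ckm was at 111 CPM in that library and at 2.72, 0.954 and 0.594 CPM in lesion libraries 1, 3 and 4 at 1 month.

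Library 1 at 3 months and library 4 at 1 month fell outside that order. In lesion library 1 at 3 months Cox7a1 was at 4.43 CPM beside a skeletal muscle sum of 111 CPM, which is 39.9 CPM per 1000, and this is the library with 7541 CPM of Cyp11a1, the enzyme that starts steroid synthesis. In lesion library 4 at 1 month Cox8b was at 2.60 CPM beside a muscle sum of 162 CPM, or 16.1 per 1000. The uterine libraries held 1.85 to 10.1 CPM of Cox7a1 and 1.14 to 4.44 CPM of Cox8b per 1000. Acta1, a gene of the muscle list, was at 73.1 to 298 CPM in uterus and at 102 CPM in lesion library 4 at 1 month. It was at 0.486 CPM in lesion library 1 at 3 months. What tissue the low sums stand for was not tested. The 7 genes of the brown fat list, a tissue known to express Cox7a1 and Cox8b, summed to 342, 213, 364 and 279 CPM in the 1-month lesions. Of these 7 genes 4 passed the count filter, and 0 of the 4 were called against eutopic uterus at either time. Of all genes 20.6% were called at 1 month and 40.5% at 3 months. The median log2 fold change of the 4 was 0.53 at 1 month and -0.65 at 3 months. Ucp1, the defining gene of that list, was at 0.0179, 0.0532, 0.0184 and 0.454 CPM in the 1-month lesions and at 0, 2.72, 0.119 and 0.38 CPM in the 3-month lesions. Adipoq, an adipocyte gene, was at 90.9, 21.2, 23.1 and 88.8 CPM in lesion libraries 1 to 4 at 1 month. It was at 0.577 to 17.3 CPM in eutopic uterus of that month and at 7.38, 312, 46.0 and 11.3 CPM in the 3-month lesions. The part of other tissues in these levels was not tested.

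**Figure D5:**
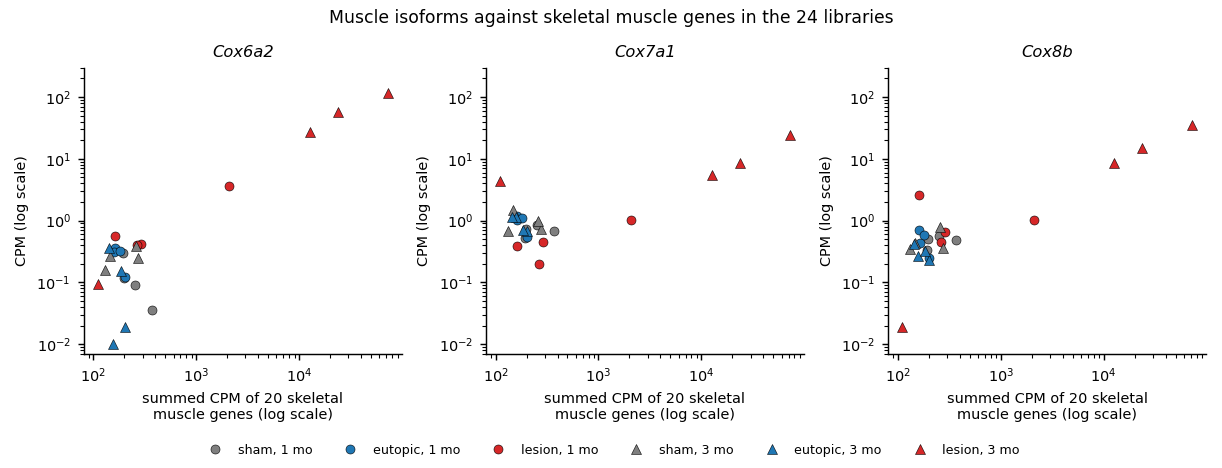
CPM of each muscle isoform against the summed CPM of 20 skeletal muscle genes in the 24 libraries, both on log axes (circles, 1 month; triangles, 3 months; colours, tissue). Lesion libraries 2, 3 and 4 at 3 months lie at the upper right, and for Cox7a1 library 1 stands above the other libraries at the left.

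Lesions at 3 months were also compared with lesions at 1 month. Of 85 members 23 rose (27.1%) and 0 fell, against 6.48% of all genes higher and 4.37% lower, and 77 of 85 log2 fold changes were positive, against 56.6% of all genes, with a median of 0.34. Of complex I 11 members rose, of complex II 2, of complex III 4, of complex IV 3, all of them the muscle isoforms, and of complex V 3. Groups did not overlap for 26 members in the higher direction (3.9% of all genes) and for 0 in the lower (5.39%). This count rested on few libraries. It was 8 without lesion library 2 at 3 months, 6, 11 and 14 without lesion libraries 1, 3 and 4 at 1 month, 3 (the muscle isoforms) without libraries 1 and 2 at 3 months, and 0 when only the lesion groups were fitted. Of all genes 1144, then 753, 684 and 1075, then 835 were called higher in these settings. With only the lesion groups 0 of all 19979 genes were called, so that count is not particular to the members.

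Cox6a2 rose by 5.38 ± 1.22 on the log2 scale from 1 to 3 months (SE; adjusted p = 0.00831, edgeR), Cox7a1 by 4.39 ± 0.55 (adjusted p = 0.000241) and Cox8b by 3.62 ± 0.93 (adjusted p = 0.0169). The call of Cox8b was lost in 4 of 15 alternatives: without lesion library 1 or 3 at 1 month (adjusted p = 0.0621 and 0.0671, edgeR), without lesion library 2 at 3 months (2.72, adjusted p = 0.0645), and with the lesion groups alone. Those of Cox6a2 and Cox7a1 were lost with the lesion groups alone. Outside the muscle isoforms the largest rise was that of Ndufc1, which was at 13.5, 16.8, 15.5 and 15.7 CPM in lesions at 1 month and at 33.4, 31.0, 23.2 and 22.1 CPM at 3 months. The log2 fold change was 0.83 ± 0.16 (SE; adjusted p = 0.00323, edgeR) with no overlap. Sdhb rose by 0.63 (adjusted p = 0.00435). Without lesion libraries 1 and 2 at 3 months neither was called, with 0.54 for Ndufc1 (adjusted p = 0.0635, edgeR) and 0.43 for Sdhb (adjusted p = 0.0506).

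The change in lesions from 1 to 3 months minus that in eutopic uterus tests whether the lesion effect differed between the times. It was called for Cox7a1 at 4.44 ± 0.72 (SE; adjusted p = 0.0158, edgeR) and for Ndufc1 at 0.98 ± 0.23 (adjusted p = 0.0441), that is for 2 of 85 members, where 0.746% of all genes were called. Ndufs3, next by p, was at 0.64 (adjusted p = 0.0659), Cox6a2 at 6.41 (adjusted p = 0.0751) and Cox8b at 4.27 (adjusted p = 0.112). Over the members 81 of 85 values were positive, with a median of 0.43, against 55.4% positive of all genes. With sham uterus as the reference the median was 0.18 and 73 were positive. The count of called members was 10, 11 and 10 without lesion library 1, 3 or 4 at 3 months, 4 without lesion library 2 at 1 month, 2 without eutopic library 1 at 1 month, and 1 without any other single library. Of all genes 899, 991 and 451 were called without lesion library 1, 3 or 4 at 3 months. Without lesion library 2 at 1 month 383 were called, and 11 to 67 without any other single library. The call of Cox7a1 held under all 23 alternatives run and that of Ndufc1 under 8 of them.

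Other genes of the pathway were counted from fixed lists. Of the assembly factors, 2 of 17 for complex I, 1 of 4 for complex II, 2 of 6 for complex III, 4 of 22 for complex IV and 2 of 4 for complex V fell in lesions at 1 month, and 1, Coa5, rose by 0.40 on the log2 scale. Of all genes 8.71% fell and 11.9% rose at that time. Fmc1, an assembly factor of complex V, had the largest fall at -0.88. At 3 months 1 of 17 rose and 1 fell for complex I, 0 of 4 were called for complex II, 1 of 6 fell for complex III, 3 of 22 rose and 1 fell for complex IV, and 1 of 4 fell for complex V, where 23.4% of all genes rose and 17.1% fell. Coa5 rose by 0.80, Cox17, the copper chaperone of complex IV, by 0.47 and Cox10, which makes heme for complex IV, by 0.36, and Ndufaf5 of complex I by 0.55, while Coa3 fell by 0.54, Bcs1l, a complex III assembly factor, by 0.39, Acad9 of complex I by 0.34 and Tmem242 of complex V by 0.33.

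Of 17 genes of the citric acid cycle and pyruvate dehydrogenase, which feed the chain, 0 were called at 1 month, with a median of -0.15. Of all genes 20.6% were called in either direction. At 3 months 8 of 17 (47.1%) rose and 0 fell, against 23.4% and 17.1% of all genes, with a median of 0.32, among them Idh3a at 0.90 and Ogdh at 0.63 on the log2 scale. Of 20 genes of mitochondrial membranes and import 3 (15%) fell at 1 month, where 8.71% of all genes fell. At 3 months 5 of the 20 (25%) rose, a share close to the 23.4% of all genes. Among these 5 were the outer-membrane channels Vdac1 at 0.68 and Vdac3 at 0.46. Of 12 mitochondrially encoded subunits 1, mt-Atp8, rose at 3 months, at 1.18, with a median of 0.28 over the list.

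Of 14 regulators of mitochondrial gene expression 4 (28.6%) rose and 1 fell at 3 months, again near the share of all genes. Perm1, a muscle regulator, rose by 5.57 on the log2 scale and was at 0.765, 53.2, 24.6 and 12.7 CPM in lesion libraries 1 to 4, the order of the muscle isoforms. Esrrg, a nuclear receptor of oxidative tissues, rose by 2.85 and was at 5.14, 11.3, 4.90 and 2.03 CPM, high in library 1 as well. Ppargc1a, the best-known coactivator of mitochondrial biogenesis, was not called and stood at 4.37, 13.5, 7.39 and 4.94 CPM in lesions and at 9.08, 3.34, 8.13 and 6.13 CPM in eutopic uterus. At 3 months 46 of 59 cytosolic ribosomal protein genes fell, with a median of -0.74, 9 of 10 smooth muscle genes fell, and 8 of 16 uterine epithelial and stromal genes fell. Of all genes 17.1% fell.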

How the data were processed

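Gene counts of 24 mouse libraries, 4 in each of 6 groups, were used as the authors deposited them, as whole-number counts per gene that were not normalized. Per the submitters' processing notes, reads were processed with bcl2fastq 1.9.0, STAR 2.7.9a and edgeR on the mm39 build; the annotation, counting tool, strand setting and treatment of reads with several matches are among the steps that the sources used here do not give. Many subunit genes have processed pseudogenes, so that their counts are uncertain to that extent. Depth was 45133642 to 59407134 counts per library. No pair of libraries in a group was near-identical (chi-square per gene 20.2 to 1155).

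From the deposited counts, CPM was computed over library totals scaled by edgeR's TMM factors. Tests were edgeR 4.0.16 quasi-likelihood tests in R 4.3.3 with filterByExpr, robust dispersion and Benjamini-Hochberg adjustment over all genes tested, at an adjusted p under 0.05. Eutopic against sham was fitted on the 16 uterine libraries (21208 genes) and the lesion comparisons on all 24 (22249 genes). Standard errors are the log2 fold change divided by the square root of F. The procedure was tested on simulated data: in the lesion comparison at 1 month it called 58 of 100 genes changed 2-fold and 88 of 100 changed 4-fold. Changes below 2-fold, such as the median of -0.42 on the log2 scale of the members, were not simulated. Only genes above a floor of fitted counts in every library were changed. Genes with few counts, such as Cox6a2 in uterus, were therefore not covered.

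Exon lengths came from GENCODE M21 and promoters from RefSeq (GRCm38.p6), matched by gene ID and symbol. Their coordinates were not joined to the mm39 data. The labels give no batch. Members, gene lists and tests were chosen with earlier results of these data known. Named members were the isoform pairs, the complex II genes, core subunits of each complex, and in each comparison the 5 called members with the largest rise and the 5 with the largest fall, or the 3 with the smallest p where fewer than 3 were called; other genes were named by adjusted p within their list or as defining markers, and some further members after their values were seen. DESeq2 1.42.0, limma 3.58.1, other size factors, no filter, other sets of libraries in the fit, a replicate block, another reference group and leaving out each library were the alternatives.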

Additional observations from a re-analysis of the deposited data

Results flagged for a closer look

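In groups of 4 libraries, a library was picked out when its gap to the nearest other divided by the group's range exceeded Dixon's critical value, which chance gives for about 1 group in 20; 10 of 72 groups met this. Eutopic library 1 at 1 month stood below the other 3 in complex I (1692 CPM against 2344 to 2431), complex III (689 against 980 to 1008), complex IV (1221 against 1859 to 1922) and Cox7a2 (54.6 against 83.5 to 87.5). Lesion library 2 at 3 months stood above the others in complex I (2531 CPM against 1959 to 2028) and complex III (1141 against 796 to 841).

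Eutopic library 2 at 3 months was high in complex V, at 2933 CPM against 2692 to 2731, and in Cox6a1, at 113 CPM against 91.3 to 92.7. Lesion library 2 at 1 month was high in Cox6a2, at 3.56 CPM against 0.404 to 0.559. Lesion library 1 at 1 month was low in Cox8a, at 86.1 CPM against 101 in each of the others.

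The difference between lesion and eutopic uterus changed from 1 to 3 months for Cox7a1, by 4.44 on the log2 scale, and for Ndufc1, by 0.98, in edgeR's test of that change.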

How the results depend on the processing

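The direction of the members at 1 month held in all alternatives run, but their count did not: 36 became 78 with limma voom and 4 with sham uterus as the reference. Of all genes 1937, 4785 and 1224 were called lower in these 3 settings. At 3 months 21 became 7 when the fit held just the compared groups, and all genes called went from 9007 to 3157. From 1 to 3 months in lesions, 23 became 13 with no filter on low counts, 7 with voom, 0 with only the compared groups (28 had an unadjusted p under 0.05) and 3 without lesion libraries 1 and 2. Of all genes 1442 were called higher in the main fit, and 1201, 743, 0 and 835 in those settings. With only the compared groups 2637 of all 19979 genes had an unadjusted p under 0.05. For the difference between times, 2 became 14 with DESeq2, 7 with voom, and 1 with no filter and with the sham reference. All genes called were 166 in the main fit, and 822, 468, 29 and 447 in those settings. Leaving out each library gave 12 to 59, 16 to 23, 6 to 25 and 1 to 11 called members in the order of these comparisons, and 0 to 0 for eutopic against sham at either time. In eutopic against sham at 3 months the median of the members turned positive without sham library 2 (0.0013) and without eutopic library 1 (0.02). Of values of single members under the alternatives, 514 kept their direction and call, 37 lost the call, 17 gained it and 0 reversed. The cause of these changes was not tested.

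With a replicate block the counts were 45, 26, 31 and 1, and 0 for eutopic against sham at both times. The block ended the call of Ndufc1 in the difference between times (adjusted p = 0.0818, edgeR). Same-numbered sham and eutopic libraries, from different mice, correlated at -0.14 to 0.26. Same-numbered eutopic and lesion libraries correlated at -0.03 to 0.39, 7 of 8 positively, and 6 of 8 were most like their own number, which is a hint from the data and not from the design. The labels do not tie them to the same mouse, and not every correlation exceeded 0.1, so the numbers were not taken as pairs.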
